A study of Mus musculus with 8 samples.

Results

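Markers of Kupffer cells, lipid-associated macrophages and monocytes were followed in liver RNA from mice with and without resmetirom. The set holds 34 genes of the 22013 in the deposited table, chosen by gene symbol, with 14 markers of resident macrophages, 11 of lipid-associated macrophages and 9 of monocytes and cells derived from them. All 34 symbols were found, each on 1 row, and all 34 passed the filter on low counts, so every member was tested.

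The libraries, made from poly(A)-selected liver RNA, number 8, with 4 control and 4 resmetirom replicates. Resmetirom activates thyroid hormone receptor beta, the main form of that receptor in hepatocytes, in preference to the alpha form. The resmetirom group comes from a steatohepatitis model: mice were fed fructose, palmitate and cholesterol for 12 weeks and, once 4 weeks had passed, were given the drug intraperitoneally for 8 weeks at 5 mg/kg/day. The vehicle of the series was 0.5% carboxymethyl cellulose sodium with 0.4% Tween-80. For the control libraries neither diet nor vehicle is stated, so effects of diet or vehicle and of the drug cannot be told apart. Strain, sex and age are not stated, nor is it said that each library came from its own animal, so the p-values reflect how far these libraries vary, which may be technical.

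Kupffer cells are the macrophages that line the sinusoids of the liver, where they take up bacteria, aged red cells and lipoprotein debris. When resident cells are lost, as in fatty liver disease, blood monocytes enter and can take on a Kupffer cell phenotype, or a lipid-associated phenotype marked by the receptor TREM2, by lysosomal proteases and by the glycoprotein GPNMB. Monocytes themselves are drawn in by the chemokine CCL2 acting on its receptor CCR2.

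The promoters of 5 members whose values are described most fully below are shown first. Each is the 300 bases from 250 before to 50 after a RefSeq start site, on the gene's own strand and build GRCm38.p6. They are those of Mmp12 at chr9:7344147-7344446 (+ strand), Gpnmb at chr6:49036268-49036567 (+ strand), Lgals3 at chr14:47373610-47373909 (+ strand), Marco at chr1:120504975-120505274 (- strand) and Clec4f at chr6:83656067-83656366 (- strand). Capitals mark matches to 3 short motifs searched on both strands, GAGGAAGT (bound by PU.1, the master factor of myeloid cells), TGANTCA (bound by AP-1) and TCACNTGA (bound by factors of the MITF and TFE family, which drive lysosomal genes).
Mmp12: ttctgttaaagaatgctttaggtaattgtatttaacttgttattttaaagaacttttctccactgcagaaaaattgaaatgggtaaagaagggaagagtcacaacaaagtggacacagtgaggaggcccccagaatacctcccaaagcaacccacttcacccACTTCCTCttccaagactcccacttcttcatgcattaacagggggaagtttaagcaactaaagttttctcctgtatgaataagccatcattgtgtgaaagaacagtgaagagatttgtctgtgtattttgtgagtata
Gpnmb: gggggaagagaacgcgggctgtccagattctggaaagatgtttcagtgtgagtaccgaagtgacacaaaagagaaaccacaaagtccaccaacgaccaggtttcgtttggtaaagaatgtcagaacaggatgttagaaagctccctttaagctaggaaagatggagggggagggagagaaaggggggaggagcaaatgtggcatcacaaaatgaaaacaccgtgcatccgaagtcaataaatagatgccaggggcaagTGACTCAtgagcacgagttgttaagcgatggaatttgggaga
Lgals3: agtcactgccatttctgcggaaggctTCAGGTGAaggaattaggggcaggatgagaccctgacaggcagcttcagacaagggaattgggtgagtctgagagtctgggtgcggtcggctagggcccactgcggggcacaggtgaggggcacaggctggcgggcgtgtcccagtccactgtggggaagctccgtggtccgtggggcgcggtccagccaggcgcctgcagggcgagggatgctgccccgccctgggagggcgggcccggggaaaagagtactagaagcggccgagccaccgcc
Marco: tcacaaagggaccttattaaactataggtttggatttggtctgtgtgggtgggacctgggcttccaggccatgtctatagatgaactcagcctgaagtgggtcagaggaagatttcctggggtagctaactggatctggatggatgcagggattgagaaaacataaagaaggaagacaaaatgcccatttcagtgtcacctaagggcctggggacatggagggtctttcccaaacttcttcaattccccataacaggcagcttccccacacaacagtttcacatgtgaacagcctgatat
Clec4f: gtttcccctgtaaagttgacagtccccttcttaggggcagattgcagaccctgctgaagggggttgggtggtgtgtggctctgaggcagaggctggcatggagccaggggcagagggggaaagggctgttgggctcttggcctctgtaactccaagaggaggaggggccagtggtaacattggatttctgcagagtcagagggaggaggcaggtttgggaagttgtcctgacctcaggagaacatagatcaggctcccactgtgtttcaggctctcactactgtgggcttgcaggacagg
The letters TCA that end TGANTCA also begin TCACNTGA, so those motifs can overlap. Among 28 members with a promoter in the RefSeq table, 5 held GAGGAAGT, against 3.2% of all 32851 promoters, 6 held TGANTCA, against 7.81%, and 3 held TCACNTGA, against 4.18%. Several members have more than 1 promoter in the table, and a match in any of them was counted. The member counts are thus counts of genes and the percentages are shares of single promoters, so they cannot be compared directly. In the printed windows, Mmp12 has 1 match to GAGGAAGT, Gpnmb 1 to TGANTCA and Lgals3 1 to TCACNTGA, and Marco and Clec4f have none. The RefSeq start site of the Lgals3 window lies 6109 bases inside the gene from its GENCODE start. For the other printed windows this distance was at most 71 bases. A match is a string of letters, not a measured site.

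Library totals were 16787561 to 19887539 counts. TMM, the scaling method of edgeR, gave factors of 1.08 to 1.16 for control replicates 1 to 4 and 1.06, 0.867, 0.804 and 0.879 for resmetirom replicates 1 to 4. The scaling bears on every level below. Without these factors the median log2 fold change over the 12207 genes was -0.31 in place of -0.0043, and 151 genes were called higher and 1961 lower in place of 317 and 243. Levels are CPM, a gene's counts relative to the size of its library scaled by the TMM factors, and log2 fold changes are resmetirom minus control. All cells of the liver contribute to each library, so fewer cells of a type and less RNA per cell cannot be told apart. The defining Kupffer cell markers Clec4f, Vsig4 and Timd4 were counted in all 8 libraries.

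No member passed the test: 0 of 34 were higher and 0 lower at an adjusted p under 0.05 (edgeR's quasi-likelihood test, Benjamini-Hochberg over all 12207 tested genes), against 4.59% of all tested genes called, 2.6% higher and 1.99% lower. At an unadjusted p under 0.05 there were 6 of 34 members, which is 17.6%, close to the 17.8% of all tested genes. All 6 were lipid-associated markers (Gpnmb, Mmp12, Lgals3, Itgax, Cd9 and Ctsb) and were lower. DESeq2 called Mmp12, Gpnmb and Lgals3 lower, against 3.37% of genes called lower by it, and limma-voom called none. The 3 lists differed in their medians: -0.12 over the resident, -0.39 over the lipid-associated and 0.0065 over the monocyte markers, beside -0.0043 over all tested genes. Values were below 0 for 10 of 14 resident, 10 of 11 lipid-associated and 4 of 9 monocyte markers, beside 50.7% of all tested genes. Resmetirom replicate 4 bears on the resident count: without it 6 of 14 were below 0 and the median was 0.048, and without resmetirom replicate 1 the median was -0.40. The monocyte median was -0.27 with library sizes only and -0.30 without resmetirom replicate 1, so its sign is not settled.

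**Figure D1:**
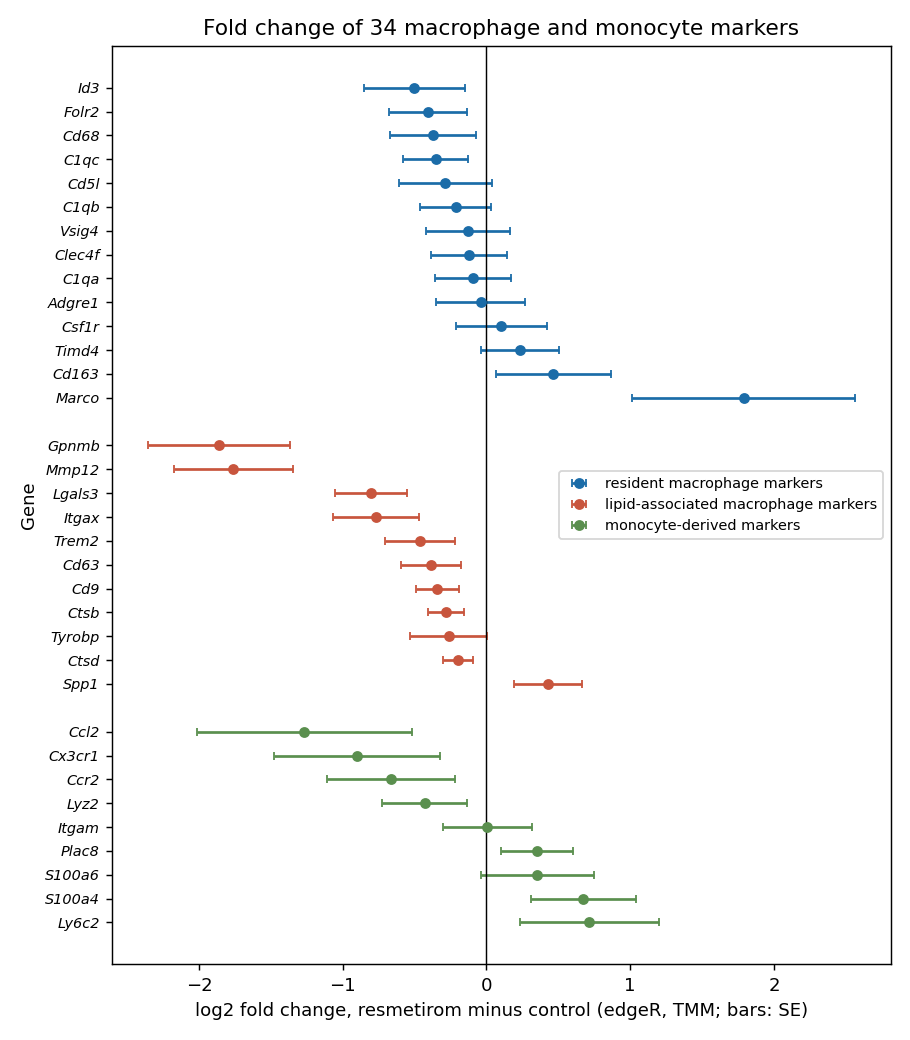
Log2 fold change (x axis, resmetirom minus control) of each of the 34 markers (y axis) from edgeR with TMM scaling, with bars of 1 SE, coloured by list and sorted within it. Gpnmb and Mmp12 lie farthest below 0 and Marco farthest above it, and 10 of the 11 lipid-associated markers lie below 0.

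The lowest log2 fold changes of the 34 members were those of the lipid-associated markers Gpnmb and Mmp12. Mmp12 encodes macrophage elastase, a secreted protease (ENSMUSG00000049723, chromosome 9, 7344381 to 7369499 on GRCm38), and was at 10.2, 15.1, 29.5 and 23.4 CPM in control replicates 1 to 4 and at 9.36, 4.35, 6.06 and 3.18 CPM in resmetirom replicates 1 to 4. All 4 resmetirom libraries lay below all 4 control libraries, but the gap between resmetirom replicate 1 and control replicate 1 was small. The log2 fold change was -1.76 (SE 0.41, adjusted p = 0.0523) by edgeR, just short of the threshold. Without control replicate 1 it was -1.97 with an adjusted p of 0.0213 by edgeR, and without resmetirom replicate 1 it was -2.11 with an adjusted p of 0.0284. Leaving out any of the other 6 libraries gave edgeR adjusted p of 0.0809 to 0.138, and the replicate block gave 0.163.

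Gpnmb encodes a transmembrane glycoprotein of lysosomes that rises in lipid-loaded macrophages (ENSMUSG00000029816, chromosome 6, 49036546 to 49070929), and was at 7.64, 11.6, 20.9 and 24.6 CPM in control replicates 1 to 4 and at 7.83, 1.88, 4.00 and 3.93 CPM in resmetirom replicates 1 to 4. Resmetirom replicate 1 lay just above control replicate 1, and the other 3 resmetirom libraries lay below every control library. The log2 fold change was -1.86 (SE 0.50, adjusted p = 0.0857) by edgeR. It passed without control replicate 1 (-2.09, edgeR adjusted p = 0.0422) and without resmetirom replicate 1 (-2.31, edgeR adjusted p = 0.0445). Leaving out any of the other 6 libraries gave edgeR adjusted p of 0.115 to 0.233, and the replicate block gave 0.174. The control libraries spanned 3.22-fold for Gpnmb and 2.88-fold for Mmp12, with control replicate 1 lowest and replicates 3 and 4 highest for both.

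Lgals3 encodes galectin-3, a lectin that binds beta-galactosides (ENSMUSG00000050335, chromosome 14, 47367751 to 47386160), and was at 18.9, 17.8, 26.4 and 23.9 CPM in control replicates 1 to 4 and at 16.1, 16.8, 8.92 and 7.86 CPM in resmetirom replicates 1 to 4. The groups did not overlap, as for Mmp12 and Ctsb, and resmetirom replicates 3 and 4 were lowest. Such separation below the controls was seen for 3 of the 34 members and for 5.5% of all tested genes, and separation above the controls for 0 members and 6.32% of genes. The log2 fold change of Lgals3 was -0.80 (SE 0.25, adjusted p = 0.116) by edgeR. Itgax, the integrin chain CD11c, was at 2.1, 3.63, 3.73 and 3.16 CPM in control replicates 1 to 4 and at 2.59, 1.82, 1.27 and 1.69 CPM in resmetirom replicates 1 to 4. Only resmetirom replicate 1 lay within the control range, and the log2 fold change was -0.77 (SE 0.30, adjusted p = 0.197) by edgeR.

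Trem2, the lipid-sensing receptor after which the phenotype is often named, was at 2.89, 4.16, 4.45 and 4.45 CPM in control replicates 1 to 4 and at 3.27, 3.31, 2.86 and 2.1 CPM in resmetirom replicates 1 to 4. Control replicate 1 lay among the resmetirom libraries and the other 3 control libraries lay above all 4. The log2 fold change was -0.46 (SE 0.24, adjusted p = 0.357) by edgeR. Its signalling adaptor Tyrobp had -0.26, with resmetirom replicates 1 and 2 inside the control range and replicates 3 and 4 below it. Of the tetraspanins, Cd9 had -0.34 (SE 0.15, adjusted p = 0.252) and Cd63 had -0.39 (SE 0.21, adjusted p = 0.378) by edgeR. Both are made by many liver cell types besides macrophages. Cd9 ran from 23.6 to 29.2 CPM in the control and from 15.7 to 26.0 CPM in the resmetirom libraries. Cd63 ran from 21.9 to 39.6 CPM in the control and from 19.9 to 28.1 CPM in the resmetirom libraries. Tyrobp ran from 12.6 to 21.3 CPM in the control and from 7.66 to 18.4 CPM in the resmetirom libraries. In all 3 genes the groups overlapped.

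The lysosomal proteases were the most abundant members of this list per length. Their mean control levels, 398 CPM for Ctsd and 622 CPM for Ctsb, were above the 156 CPM of the Kupffer cell marker Clec4f. In bulk RNA the cells they came from were not measured, so their values need not be those of macrophages. The authors' deposited TPM, which corrects for length, averaged 348 TPM in the control and 220.1 TPM in the resmetirom libraries for Ctsd (cathepsin D), the highest of the 34 members, and 244 TPM in the control and 144 TPM in the resmetirom libraries for Ctsb (cathepsin B), the third. Ctsb was at 656, 628, 613 and 589.6 CPM in control replicates 1 to 4 and at 580.3, 575, 509.6 and 379 CPM in resmetirom replicates 1 to 4. The groups did not overlap, and the spread among resmetirom libraries exceeded that among controls, with replicate 4 lowest. The log2 fold changes were -0.28 (SE 0.12, adjusted p = 0.253) for Ctsb and -0.20 (SE 0.11, adjusted p = 0.378) for Ctsd by edgeR. Ctsd ran from 377 to 438 CPM in the control and from 301 to 409 CPM in the resmetirom libraries, and its groups overlapped through resmetirom replicate 1. Exons of Ctsb overlap Fdft1 on the opposite strand, and the sources used here do not give strand handling. Fdft1, a cholesterol synthesis gene, was at 1.97 (SE 0.43, edgeR adjusted p = 0.0529). Reads from the overlapping stretch alone could be given to either gene. Exons of Mmp12 overlap Mmp1b, which had 0 counts in all 8 libraries. On the same strand, exons of Ctsd overlap Gm49369, which had 36 counts over the control and 45 over the resmetirom libraries. Exons of Spp1, Itgam and S100a4 overlap Gm42793, Gm49368 and Gm42674, also on the same strand. Folr2, Csf1r, Cd9 and Cx3cr1 have such overlaps on the opposite strand. The effect of these overlaps on the counts was not tested.

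Spp1 was the 1 member of the list above 0. It encodes osteopontin, which cholangiocytes make as well as macrophages, and was at 46.6, 32.6, 24.9 and 26.1 CPM in control replicates 1 to 4 and at 61.0, 37.4, 41.7 and 35.0 CPM in resmetirom replicates 1 to 4. Resmetirom replicate 1 was highest, and the other 3 lay inside the control range. The log2 fold change was 0.43 (SE 0.23, adjusted p = 0.398) by edgeR. Of 8 cholangiocyte markers 4 were tested, with a median of 0.83 and none called. They were not of 1 direction, with 3 above 0, up to 1.10, and 1 below it. That 1 was Sox9, at -1.38 (SE 0.53, adjusted p = 0.188) by edgeR, the lowest p of the list. Their summed level was 3.19 to 8.65 CPM in the control and 3.38 to 11.2 CPM in the resmetirom libraries. The part of cholangiocytes in the Spp1 value was not tested.

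**Figure D2:**
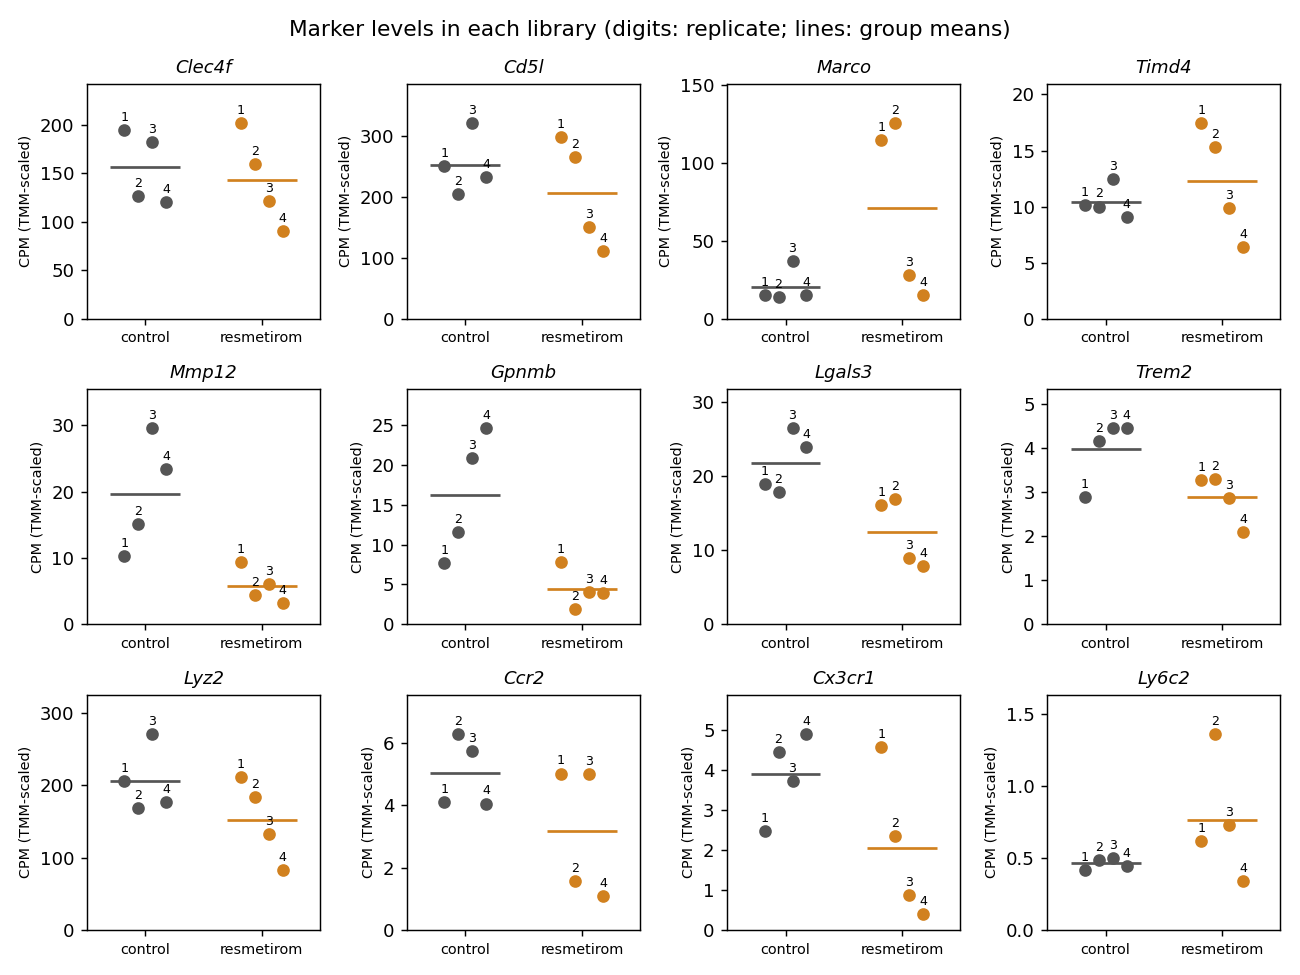
Level of 12 markers in each library (y axis, CPM scaled by TMM factors, from 0) for the control and resmetirom groups (x axis), with each point marked by its replicate and lines at group means. For Mmp12 and Lgals3 the groups do not overlap, and for Clec4f, Cd5l, Timd4 and Lyz2 the lowest resmetirom library, replicate 4, lies below every control library.

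Apart from Marco, the resident markers had log2 fold changes of -0.50 to 0.47, with a wide spread among the resmetirom libraries. Clec4f, a lectin that in the mouse liver is made by Kupffer cells (ENSMUSG00000014542, chromosome 6, 83644542 to 83656187), was at 195, 127, 183 and 120.2 CPM in control replicates 1 to 4 and at 202, 159.8, 122 and 90.9 CPM in resmetirom replicates 1 to 4. Resmetirom replicate 1 lay above every control library and replicate 4 below every one. The log2 fold change was -0.12 (SE 0.27, adjusted p = 0.878) by edgeR, and its sign turned without control replicate 1 (0.0050) or resmetirom replicate 4 (0.046).

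Timd4, the phosphatidylserine receptor TIM-4 carried by Kupffer cells of embryonic origin, was at 10.2, 10, 12.5 and 9.05 CPM in control replicates 1 to 4 and at 17.5, 15.3, 9.85 and 6.37 CPM in resmetirom replicates 1 to 4. Resmetirom replicates 1 and 2 lay above all 4 control libraries and replicate 4 below them, and edgeR gave 0.24 (SE 0.27, adjusted p = 0.732). With library sizes as the only scaling it was -0.041, so its direction depends on the scaling. Vsig4, a complement receptor of Kupffer cells, had -0.13, with sign changes without control replicate 3 (0.045) or resmetirom replicate 4 (0.050). Vsig4 ran from 51.0 to 87.2 CPM in the control and from 36.3 to 87.6 CPM in the resmetirom libraries. Cd5l, a secreted scavenger receptor family protein and the most abundant resident marker per length (232 TPM in the control and 141 TPM in the resmetirom libraries), was at 250.4, 205, 322 and 232 CPM in control replicates 1 to 4 and at 299, 266, 152 and 112 CPM in resmetirom replicates 1 to 4. Resmetirom replicates 3 and 4 were the 2 lowest of the 8 libraries, and the log2 fold change was -0.29 (SE 0.32, adjusted p = 0.732) by edgeR.

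Marco differed most between group means among the resident markers. This scavenger receptor, which binds bacteria and modified lipoproteins (ENSMUSG00000026390, chromosome 1, 120474538 to 120505024), was at 15.6, 14.0, 37.3 and 15.2 CPM in control replicates 1 to 4 and at 115, 126, 28.4 and 15.2 CPM in resmetirom replicates 1 to 4. Resmetirom replicates 1 and 2 stood far above all other libraries, replicate 3 lay inside the control range, and replicate 4 lay near the lowest controls. The resmetirom libraries spanned 8.26-fold, and the edgeR value of 1.79 (SE 0.78, adjusted p = 0.303) was not called. Leaving out 1 library at a time moved it between 1.36, without resmetirom replicate 2, and 2.25, without control replicate 3. Cd163, the receptor for haemoglobin bound to haptoglobin, was at 27.2, 16.9, 21.3 and 20.7 CPM in control replicates 1 to 4 and at 48.3, 38.7, 17.3 and 14.4 CPM in resmetirom replicates 1 to 4. Replicates 1 and 2 again lay above every control library and replicate 4 below, for 0.47 (SE 0.40, adjusted p = 0.639) by edgeR, and this sign turned on the TPM scales (-0.16 on log2(TPM + 1)).

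The C1q genes lie side by side on chromosome 4 and encode the 3 chains of complement C1q. C1qa was at 81.3, 59.8, 77.5 and 57.5 CPM in control replicates 1 to 4 and at 84.9, 83.3, 53.6 and 36.6 CPM in resmetirom replicates 1 to 4. C1qb and C1qc had the same order of resmetirom libraries, with replicate 1 highest and replicate 4 lowest. Their log2 fold changes were -0.10, -0.21 and -0.35 for C1qa, C1qb and C1qc, with edgeR adjusted p of 0.909, 0.738 and 0.495. C1qb ran from 66.0 to 90.8 CPM in the control and from 41.0 to 96.5 CPM in the resmetirom libraries. C1qc ran from 47.8 to 73.2 CPM in the control and from 31.9 to 66.8 CPM in the resmetirom libraries. In all 3 genes the highest and lowest resmetirom libraries differed by 2.09-fold to 2.35-fold. The sign of C1qa turned without resmetirom replicate 4 (0.099).

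Among genes made by most macrophages, Adgre1 and Csf1r were near 0. Cd68 was below 0, with an SE of 0.30, and was not called either. Adgre1, which encodes the F4/80 antigen, had -0.041 (SE 0.31, adjusted p = 0.969), and Csf1r, the receptor for the growth factor CSF1, had 0.10 (SE 0.32, adjusted p = 0.922) by edgeR. Both signs turned under other choices, Csf1r to -0.16 with library sizes only and Adgre1 to 0.076, 0.070 and 0.14 without control replicate 3, resmetirom replicate 3 and resmetirom replicate 4. Cd68, a lysosomal glycoprotein, had -0.37 and Folr2, a folate receptor of resident macrophages, -0.41, with edgeR adjusted p of 0.604 and 0.511. Adgre1 ran from 24.2 to 35.7 CPM in the control and from 16.4 to 47.6 CPM in the resmetirom libraries. Csf1r ran from 57.3 to 79.9 CPM in the control and from 40.1 to 111 CPM in the resmetirom libraries. In both genes the resmetirom range enclosed the control range. Cd68 ran from 14.5 to 26.2 CPM in the control and from 9.35 to 23.2 CPM in the resmetirom libraries. Folr2 ran from 12.1 to 20.8 CPM in the control and from 6.78 to 15.7 CPM in the resmetirom libraries. In these the resmetirom libraries reached below the controls and not above them. Id3, an inhibitor of helix-loop-helix factors that Kupffer cells need and endothelial cells also make, was at 70.8, 22.7, 31.3 and 45.8 CPM in control replicates 1 to 4 and at 29.6, 26.9, 40.2 and 23.9 CPM in resmetirom replicates 1 to 4. It was the resident marker whose control libraries spread most, 3.11-fold, with control replicate 1 highest, and its log2 fold change was -0.50 (SE 0.35, adjusted p = 0.548) by edgeR.

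Most members had the same resmetirom library lowest. Replicate 4 was the lowest of the 4 for 14 of 14 resident, 7 of 11 lipid-associated and 6 of 9 monocyte markers, beside 24.1% of all tested genes. It was also lowest in the mean level of some other gene lists described below, at -0.66 for inflammatory signalling, -0.60 for complement and iron handling, -0.55 for monocyte recruitment and -0.54 for lysosomes and phagocytosis, relative to the control mean on the log2(CPM + 0.5) scale. Replicate 2 was lowest for sinusoidal endothelial (-0.42, replicate 4 at -0.39), stellate cell (-0.62, replicate 4 at -0.59) and cholangiocyte markers (-0.36, replicate 4 at 0.45). For hepatocyte markers replicate 1 was lowest, at 0.15. Replicates 1 and 2 both lay above replicates 3 and 4 for 13 of 14 resident, 6 of 11 lipid-associated and 4 of 9 monocyte markers, beside 21.2% of all tested genes. These markers come from the same cells and libraries and are not independent of each other.

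The monocyte list was mixed. Ccr2, the receptor for CCL2, was at 4.10, 6.29, 5.73 and 4.05 CPM in control replicates 1 to 4 and at 5.02, 1.56, 4.99 and 1.08 CPM in resmetirom replicates 1 to 4. Resmetirom replicates 1 and 3 lay inside the control range and replicates 2 and 4 far below it, for -0.66 (SE 0.44, adjusted p = 0.512) by edgeR. Ccl2 itself was low, with 142 counts over the control libraries, 79 of them in replicate 1, and 45 over the resmetirom libraries, 28 of them in replicate 1. Its edgeR value was -1.27 (SE 0.75, adjusted p = 0.439), and it was -0.53 without control replicate 1 and -2.14 without resmetirom replicate 1.

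Cx3cr1, the fractalkine receptor of patrolling monocytes, was at 2.47, 4.45, 3.73 and 4.89 CPM in control replicates 1 to 4 and at 4.57, 2.34, 0.866 and 0.407 CPM in resmetirom replicates 1 to 4. The last 2 values rest on 13 and 6 counts. The resmetirom libraries spanned 11.2-fold, from within the control range to well below it, and the log2 fold change was -0.90 (SE 0.58, adjusted p = 0.492) by edgeR. Without resmetirom replicate 1 it was -1.68 with an edgeR adjusted p of 0.0906. Ly6c2, the antigen of inflammatory monocytes, had only 9 to 11 counts in each control library and 5 to 21 in each resmetirom library, and 0.72 (SE 0.48, adjusted p = 0.511) by edgeR. Its near-identical neighbour Ly6c1 had 30 and 14 counts over the groups, so reads could be split between them.

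Lyz2, the lysozyme of monocytes and macrophages, was the second most abundant member per length (292 TPM in the control and 159 TPM in the resmetirom libraries). It was at 205, 169, 271 and 177 CPM in control replicates 1 to 4 and at 211, 184, 132 and 82.5 CPM in resmetirom replicates 1 to 4. Replicate 4 of the resmetirom group was lowest and replicate 1 highest, as for 12 of the 14 resident markers. The log2 fold change was -0.43 (SE 0.29, adjusted p = 0.534) by edgeR. Its paralog Lyz1 had 17 counts over the control and 5 over the resmetirom libraries. Itgam, the integrin chain CD11b, was the member nearest to 0, at 0.0065 (SE 0.31, adjusted p = 0.995) by edgeR, and its sign turned to -0.27 with library sizes only. Plac8, S100a4 and S100a6, which are made by monocytes and by other cells, had 0.35, 0.67 and 0.35, with edgeR adjusted p of 0.537, 0.378 and 0.720. On the log2(TPM + 1) scale Plac8 and S100a6 were at -0.22 and -0.092. Itgam ran from 1.96 to 2.91 CPM in the control and from 1.73 to 3.66 CPM in the resmetirom libraries. Plac8 ran from 7.31 to 9.74 CPM in the control and from 5.62 to 14.4 CPM in the resmetirom libraries. S100a6 ran from 1.07 to 3.14 CPM in the control and from 1.56 to 3.83 CPM in the resmetirom libraries. For all 3 the highest of the 8 libraries was resmetirom replicate 1. S100a4 ran from 0.532 to 1 CPM in the control and from 0.999 to 1.69 CPM in the resmetirom libraries.

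The lists were then compared within each library, as the mean over a list of log2(CPM + 0.5) minus the control mean of each gene. The resident list was at 0.17, -0.28, 0.27 and -0.16 in control replicates 1 to 4, and 0.54, 0.30, -0.34 and -0.81 in resmetirom replicates 1 to 4. Resmetirom replicate 1 was highest of the 8 libraries and replicate 4 lowest, and the SD was 0.62 in the resmetirom and 0.26 in the control group. The lipid-associated list was at -0.20, -0.10, 0.23 and 0.072 in control replicates 1 to 4, and -0.17, -0.63, -0.64 and -0.89 in resmetirom replicates 1 to 4. Resmetirom replicate 1 was within the control range and the other 3 below it. The monocyte list was at -0.021, -0.17, 0.19 and 0.0028 in control replicates 1 to 4, and 0.40, -0.15, -0.26 and -0.83 in resmetirom replicates 1 to 4. As for the resident list, resmetirom replicate 1 was highest and replicate 4 lowest of the 8 libraries.

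In the difference between the resident and the lipid-associated list the library scaling cancels, apart from the 0.5 added. It was 0.36, -0.18, 0.046 and -0.23 in control replicates 1 to 4, and 0.71, 0.93, 0.29 and 0.081 in resmetirom replicates 1 to 4. The groups overlapped, with resmetirom replicates 1 and 2 above every control library and replicates 3 and 4 within the control range. The lipid-associated minus the monocyte list was -0.17, 0.068, 0.037 and 0.069 in control replicates 1 to 4, and -0.58, -0.48, -0.38 and -0.069 in resmetirom replicates 1 to 4. Resmetirom replicates 1, 2 and 3 lay below every control library, and replicate 4 lay among them. The resident minus the monocyte list was 0.19, -0.11, 0.083 and -0.16 in control replicates 1 to 4, and 0.14, 0.45, -0.082 and 0.012 in resmetirom replicates 1 to 4. Resmetirom replicate 2 lay above every control library and the other 3 within the control range. These are descriptions with no test, since they are scores over the members.

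**Figure D3:**
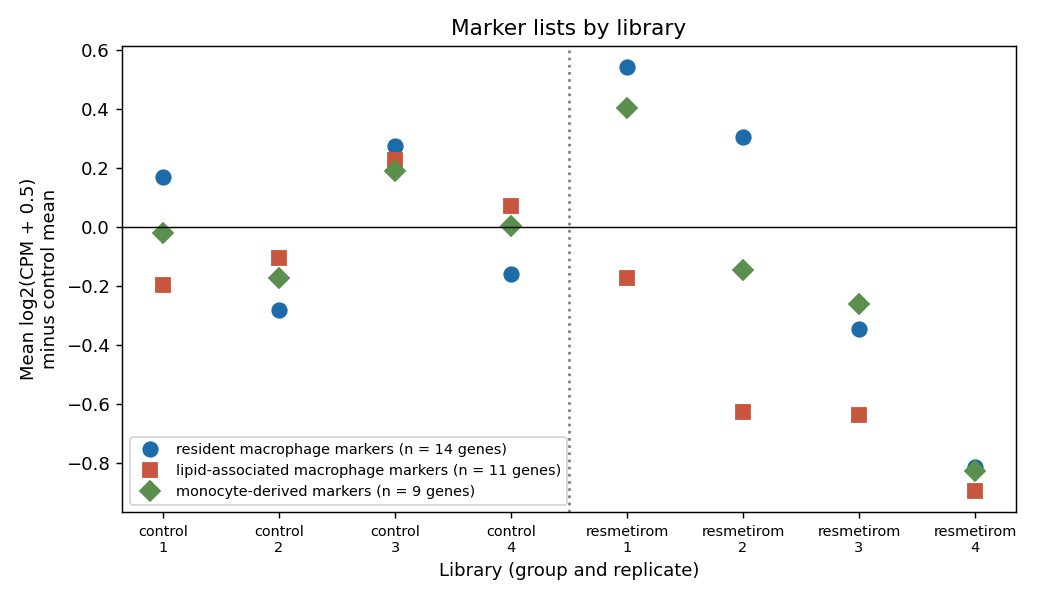
Mean of log2(CPM + 0.5) over each list, minus the control mean of each gene (y axis), in the 8 libraries (x axis), with 1 point for each list. The resident list runs from 0.54 in resmetirom replicate 1 to -0.81 in replicate 4, and the lipid-associated list is the lowest of the 3 in every resmetirom library.

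Ratios of single genes to Clec4f in the same library set the other markers against a Kupffer cell marker without any scaling. They are log2 ratios of counts with 0.5 added, and 7 were tested. Timd4 to Clec4f was -4.26, -3.66, -3.87 and -3.73 in control replicates 1 to 4 and -3.53, -3.38, -3.63 and -3.83 in resmetirom replicates 1 to 4. Resmetirom replicates 1, 2 and 3 lay above every control library, a difference of 0.29 (exact permutation test, 2-sided p = 0.114, adjusted p = 0.267 over the 7 ratios). Gpnmb to Clec4f was -4.67, -3.45, -3.13 and -2.29 in control replicates 1 to 4 and -4.69, -6.38, -4.92 and -4.52 in resmetirom replicates 1 to 4. Resmetirom replicates 1, 2 and 3 lay below every control library, a difference of -1.74 (exact permutation test, 2-sided p = 0.0571, adjusted p = 0.267 over the 7 ratios). Trem2 to Clec4f, with a difference of -0.31 (exact permutation test, 2-sided p = 0.371, adjusted p = 0.433 over the 7 ratios), stayed inside the control range in all 4 resmetirom libraries.

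Ccr2 to Clec4f had a difference of -0.79 (exact permutation test, 2-sided p = 0.2, adjusted p = 0.28 over the 7 ratios). Resmetirom replicates 2 and 4 lay below every control library and replicates 1 and 3 within the control range. Ly6c2 to Clec4f had a difference of 0.71 (exact permutation test, 2-sided p = 0.114, adjusted p = 0.267 over the 7 ratios), on few Ly6c2 counts. Vsig4 to Clec4f had a difference of -0.033 (exact permutation test, 2-sided p = 0.8, adjusted p = 0.8 over the 7 ratios) and Cd5l to Clec4f a difference of -0.23 (exact permutation test, 2-sided p = 0.171, adjusted p = 0.28 over the 7 ratios). No ratio passed after adjustment. The smallest p that 4 against 4 libraries allow is 0.0286, so over 7 ratios a single fully separated ratio could not have passed.

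A further 4 ratios were chosen after their values were seen and were not tested. Mmp12 to Clec4f was -4.25, -3.06, -2.63 and -2.36 in control replicates 1 to 4 and -4.43, -5.19, -4.32 and -4.82 in resmetirom replicates 1 to 4. All 4 resmetirom libraries lay below all 4 control libraries. The mean difference was -1.62 for Mmp12, -0.72 for Lgals3, 1.56 for Marco and 0.45 for Cd163. Lgals3 to Clec4f lay below every control library in 3 of the 4 resmetirom libraries, and Marco to Clec4f above every one in 3 of 4.

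**Figure D4:**
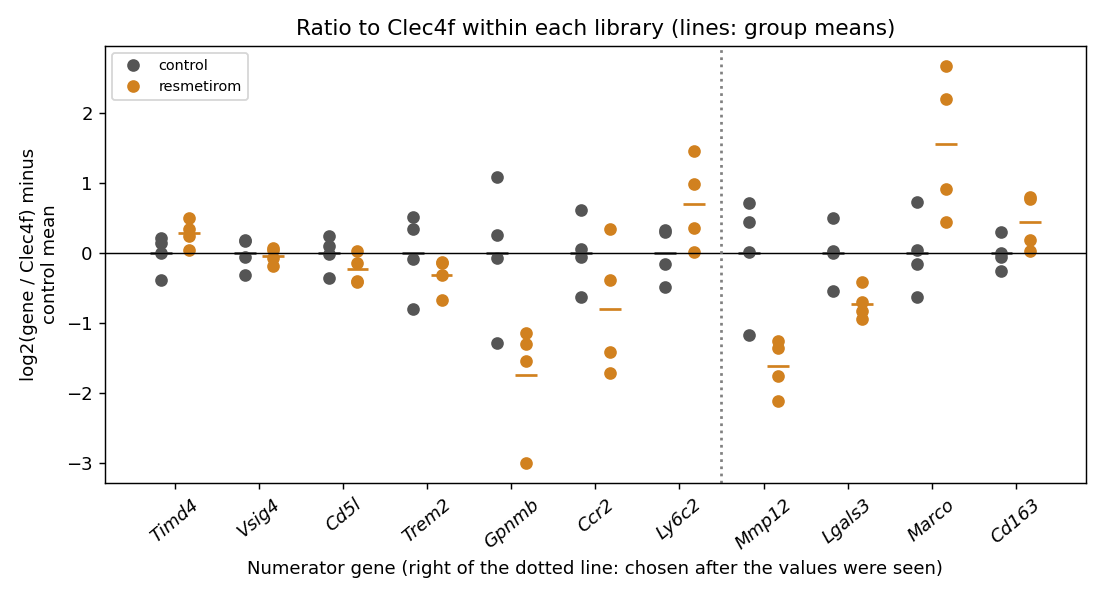
Log2 ratio of the counts of each gene to those of Clec4f, minus the control mean (y axis), for 7 planned ratios and, right of the dotted line, 4 chosen after the values were seen (x axis), with 1 point for each library and lines at group means. For Gpnmb 3 of 4 resmetirom libraries lie below every control library, for Mmp12 all 4 do, and for Vsig4 all 4 lie within the control range.

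The authors' deposited table gives another view, since its log2 fold changes are ratios of mean TPM, with no further scaling. Of the 34 members, 14 in the authors' deposited table had an adjusted p under 0.05, all lower, beside 5192 lower and 190 higher among its 22013 genes. Those 22013 include genes that failed the low-count filter, which all 34 members passed, so the shares are not alike. Over the 12207 tested genes, limma on log2(TPM + 1) called 38.1% lower, and 15 of the 34 members. The authors' deposited table puts 30 members below 0 and 4 above, with Gpnmb at -2.29, Mmp12 at -2.26, Lgals3 at -1.30, Clec4f at -0.56 and Marco at 1.38. With library sizes as the only scaling edgeR called 6 members lower, against 16.1% of all tested genes, all 6 of them lipid-associated (Cd9, Ctsb, Ctsd, Gpnmb, Lgals3 and Mmp12).

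Genes around these markers were taken from lists drawn up by function. Their counts stand beside 4.59% of all tested genes called and 17.8% with an unadjusted p under 0.05 by edgeR. Of 16 tested chemokines, adhesion molecules and receptors that recruit monocytes, 0 were called by edgeR and 3 had an unadjusted p under 0.05. The lowest p was that of Cxcl1, a neutrophil chemokine, at -1.82 (SE 0.58, adjusted p = 0.129), with control replicate 1 well above the other control libraries (12.5 against 3.41 to 4.80 CPM). DESeq2 called Cxcl1 lower. Of 18 tested genes of inflammatory signalling, 0 were called by edgeR and 3 had an unadjusted p under 0.05, with Socs3, a feedback inhibitor of cytokine receptors, at -1.02 (SE 0.33, adjusted p = 0.116) by edgeR. DESeq2 called Socs3 lower.

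The list of TREM2 signalling and lipid handling held called genes. Of 19 tested, 6 fell (Apoe, Lpl, Abca1, Abcg1, Anxa2 and Mgst1) and 0 rose, against 1.99% of all tested genes called lower. Mgst1 lost its call when any library other than control replicate 3 was left out, with the replicate block and without robust estimation, and Apoe lost it without control replicate 1. Lpl, lipoprotein lipase, was at 227, 139, 287 and 165 CPM in control replicates 1 to 4 and 78.2, 57.8, 50.7 and 45.9 CPM in resmetirom replicates 1 to 4. All 4 resmetirom libraries lay below all 4 control libraries, for -1.81 (SE 0.26, adjusted p = 0.00474) by edgeR. Abcg1, a sterol exporter of macrophages and other cells, had -1.19 (SE 0.21, adjusted p = 0.0062) and Anxa2, annexin A2, -1.18 (SE 0.19, adjusted p = 0.00428) by edgeR. Most of these genes are made by hepatocytes or other liver cells as well, and in bulk RNA their source was not measured.

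Of 22 tested genes of lysosomes and phagocytosis, 2 fell and 0 rose by edgeR, against 1.99% of all tested genes called lower and 2.6% called higher. DESeq2 called the same 2 lower and Atp6v0d2 and Lamp2 higher. With the replicate block Lamp1 was not called. Lamp1, a lysosomal membrane protein, was at 648, 596, 618 and 608 CPM in control replicates 1 to 4 and 468, 459, 502 and 475 CPM in resmetirom replicates 1 to 4, for -0.37 (SE 0.076, adjusted p = 0.0143) by edgeR. Hexa, a lysosomal hexosaminidase, had -0.61 (SE 0.11, adjusted p = 0.00636) by edgeR. The median of the list was -0.19, and 16 of 22 were below 0. Of 14 tested genes of complement and of haem and iron handling 1 fell, C1s1, the protease that partners with C1q and is made by hepatocytes, at -0.50 (SE 0.084, adjusted p = 0.00468) by edgeR.

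Markers of neighbouring cell types are given as measured, and their part in the results above was not tested. Of all tested genes, edgeR called 4.59%, and 17.8% had an unadjusted p under 0.05. All 10 markers of sinusoidal endothelial cells were tested and lay below 0, with a median of -0.19 and 0 called by edgeR (2 at an unadjusted p under 0.05). Their summed level was 338 to 490.1 CPM in the control and 315 to 435 CPM in the resmetirom libraries, with Stab2, a scavenger receptor, at -0.46 (SE 0.15, adjusted p = 0.117) by edgeR. Of 11 stellate cell and fibroblast markers 10 were tested and 1 fell, the collagen gene Col3a1, at -1.06 (SE 0.25, adjusted p = 0.0474) by edgeR, while the summed level was 436 to 662 CPM in the control and 441 to 716 CPM in the resmetirom libraries. Col3a1 was no longer called when control replicate 1, 3 or 4 was left out, nor when resmetirom replicate 2, 3 or 4 was. Dendritic cells also make Itgax. Of 10 markers of them, 7 were tested with 0 called by edgeR and 1 at an unadjusted p under 0.05, and their summed level was 168 to 219 CPM in the control and 80.2 to 188 CPM in the resmetirom libraries. Of 9 neutrophil markers 3 were tested with 0 called by edgeR and 0 at an unadjusted p under 0.05, and the defining genes Ly6g and Mpo had no counts in any library. The 10 hepatocyte markers had a median of 0.28 with 2 called higher by edgeR, Tat and Serpina1a (with library sizes only, edgeR called Tat higher and Serpina1c, Trf and Ttr lower), and a summed level of 86456 to 99946 CPM in the control and 104665 to 113323 CPM in the resmetirom libraries. Serpina1a was not called without control replicate 3, control replicate 4 or resmetirom replicate 3, on the TPM scales, or with the replicate block.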

How the data were processed

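The authors deposited 1 table that holds counts (whole numbers for each gene in each library), TPM values, group means, a log2 fold change, and a p-value with its adjusted form, per the file headers. The values show the authors' log2 fold change to be the log2 ratio of group mean TPM, and no source names the tool behind their p-value. Among tools, with no role or order, the submitters' processing notes list HISAT2 2.1.0, StringTie 1.3.1, Bowtie2 2.2.8 and fastp 0.18.0, besides edgeR, DESeq2 and RSEM, and the build mm10. TPM and counts scaled by library size shift all genes when a few abundant ones change.

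The count test was that of edgeR 4.0.16 under R 4.3.3 (filterByExpr, TMM, robust glmQLFit and glmQLFTest) over all 12207 genes kept, with Benjamini-Hochberg adjustment and a threshold of 0.05. An SE is the absolute log2 fold change over the root of the F statistic. Alternatives used DESeq2 1.42.0, limma 3.58.1 (voom, or log2 TPM with 1 or 0.1 added), other scalings and filters, a replicate block and leaving out each library. Single ratios were compared with exact permutation tests in scipy 1.17.1. The procedure was tested on simulated counts, built from a common mean profile scaled by library size, with changes set in randomly chosen genes. No shift between groups like that of the TMM factors was built in, so that test does not bear on the scaling. Gene positions came from GENCODE M21 (GRCm38) and promoters from RefSeq. Every library pair of a group differed beyond counting error (chi-square per degree of freedom of 13.2 or more). The largest values were those of resmetirom replicate 1, at 115.6, 195.7 and 91.8 against replicates 2, 3 and 4. The remaining resmetirom pairs had 24.3 to 50.1 and the control pairs 13.2 to 60.2, so resmetirom replicate 1 stood apart from its group.

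The members and gene lists were chosen with earlier results of these data known. All 34 members are named, and of every other list up to 3 called genes with the smallest p, or else the gene with the smallest p. The result of 1 of these lists is not reported here.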

Additional observations from a re-analysis of the deposited data

Results flagged for a closer look

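Marco in control replicate 3 stood apart from its group, at 37.3 CPM against 14.0 to 15.6 CPM in the other 3 control libraries. The gap was 0.933 of the group's whole range, above Dixon's critical value of 0.829 for 4 samples. Of 68 such groups (34 members in 2 groups) this was the 1 that passed, and chance flags about 1 in 20. Without that library the log2 fold change of Marco was 2.25 with an edgeR adjusted p of 0.314.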

How the results depend on the processing

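Over 19 alternatives 567 values of the 34 members kept their direction and stayed uncalled, 45 were newly called lower, none was called higher, and 32 changed sign, among 11 members whose log2 fold change was at most 0.47 in size. Members called lower numbered 0 by edgeR, 3 with DESeq2, 6 with library sizes only, 1 (Mmp12) with at least 1 CPM in 4 libraries, 2 (Gpnmb and Mmp12) without robust estimation, 15 on log2(TPM + 1), 14 on log2(TPM + 0.1), and 0 to 2 with 1 library left out. Of all genes, 2.11% were called lower with at least 1 CPM in 4 libraries and 1.83% without robust estimation. All genes called went from 317 higher and 243 lower to 532 and 411 with DESeq2, 151 and 1961 with library sizes only, 123 and 4648 on log2(TPM + 1), 122 and 4608 on log2(TPM + 0.1), and 182 to 313 higher and 149 to 238 lower with 1 library left out (182 and 149 without control replicate 4, 208 and 161 without resmetirom replicate 4). The lipid-associated median moved from -0.39 to -0.69 with library sizes only, -0.81 on log2(TPM + 1) and -0.86 on log2(TPM + 0.1). The median of all genes moved by a similar amount, from -0.0043 to -0.31, -0.41 and -0.50. The resident median moved as well, from -0.12 to -0.40 with library sizes only, -0.67 on log2(TPM + 1) and -0.68 on log2(TPM + 0.1). The monocyte median moved from 0.0065 to -0.27, -0.22 and -0.44 in those settings. Both moved by less than the SD of their list among the resmetirom libraries, 0.62 for the resident and 0.50 for the monocyte list. That SD was smaller, 0.30, for the lipid-associated list.

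Signs changed with library sizes only for Timd4 (-0.041), Csf1r (-0.16) and Itgam (-0.27). They changed on log2(TPM + 1) and log2(TPM + 0.1) for Timd4 (-0.31 and -0.36), Cd163 (-0.16 and -0.20), Csf1r (-0.55 and -0.58), Spp1 (-0.061 and -0.063), Itgam (-0.20 and -0.44), S100a6 (-0.092 and -0.12) and Plac8 (-0.22 and -0.24). Itgam was also at -0.0024 without a low-count filter and -0.021 with limma-voom. With 1 library left out, values ran from -0.33 to 0.046 for Clec4f, -0.37 to 0.050 for Vsig4, -0.26 to 0.099 for C1qa, -0.42 to 0.14 for Adgre1, -0.18 to 0.30 for Csf1r and -0.30 to 0.13 for Itgam. The cause was not tested.

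With C1qa, C1qb and C1qc summed in place of Clec4f, an alternative chosen after seeing the data, the Timd4 ratio differed by 0.41 and the Vsig4 ratio turned from -0.033 to 0.087, given with no p because of that choice. The replicate numbers showed no clear pairing of the libraries. Deviations from the group means correlated at -0.338, 0.228, -0.220 and -0.102 for numbers 1 to 4, and only number 2 correlated best with its own number. So few correlations cannot exclude a weak pairing. With the replicate block 240 genes were called higher and 166 lower, members called stayed at 0, and Itgam turned to -0.041. Depth limits Ccl2, Ly6c2, Cx3cr1, S100a4, Ccr2, Itgax and S100a6, whose lowest counts in a library were 1, 5, 6, 11, 16, 19 and 23. Ly6c2 had no value in 2 alternatives, where it did not pass the filter.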

Other observations

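Among markers of other blood cells Jchain rose and Alas2 fell, and the rest are given as values. The counts stand beside 4.59% of all tested genes called by edgeR and 17.8% with an unadjusted p under 0.05. Of 8 T cell markers 4 were tested, with 0 called by edgeR and 2 at an unadjusted p under 0.05, and all 4 were above 0 with a median of 1.17. Their level was low, with a sum of 2.28 to 3.86 CPM in the control and 4.07 to 9.29 CPM in the resmetirom libraries, and Cd3g, a chain of the T cell receptor complex, was at 1.45 (SE 0.51, adjusted p = 0.148) by edgeR. Of 7 NK cell markers 3 were tested, with 0 called by edgeR and 2 at an unadjusted p under 0.05, and Nkg7, a granule protein of cytotoxic cells, was at 2.16 (SE 0.65, adjusted p = 0.0897) by edgeR and called higher by DESeq2. Of 7 B and plasma cell markers 5 were tested and 1 rose, Jchain, which joins the subunits of secreted IgA and IgM, at 1.44 (SE 0.30, adjusted p = 0.0157) by edgeR, with all 4 resmetirom libraries (3.66 to 5.92 CPM) above all 4 control libraries (0.840 to 2.08 CPM).

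Of 6 red cell markers 5 were tested and 1 fell, Alas2, the first enzyme of haem synthesis in erythroid cells, at -2.52 (SE 0.29, adjusted p = 0.00158) by edgeR, while 4 of the 5 were above 0. Of 6 adipocyte markers only Fabp4, which endothelial cells and macrophages also make, was tested, and it fell, at -0.996 (SE 0.17, adjusted p = 0.00413) by edgeR, and Adipoq, Retn and Lep had no counts in any library. Of 6 markers of dividing cells 5 were tested, with 0 called by edgeR and 0 at an unadjusted p under 0.05, and Birc5, a mitotic protein, was at 0.55 (SE 0.52, adjusted p = 0.665) by edgeR. Among the cholangiocyte markers the lowest p was that of Sox9, at -1.38 (SE 0.53, adjusted p = 0.188) by edgeR, among the dendritic cell markers that of Flt3, at 1.11 (SE 0.45, adjusted p = 0.21), and among the neutrophil markers that of S100a9, at -0.51 (SE 0.43, adjusted p = 0.625).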
